A study of Mus musculus with 28 samples.

Results

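The replication-dependent histone genes of the mouse are described here across osteocyte formation in IDG-SW3 cells. They were taken by symbol, as every protein-coding gene of the GENCODE M1 annotation (mm9 build) whose name begins with Hist1h, Hist2h, Hist3h or Hist4h. This gave 67 of 22380 protein-coding genes. Their 5 classes were 6 H1, 19 H2A, 18 H2B, 11 H3 and 13 H4 genes. The Hist1 cluster held 55 of them, the Hist2 cluster 9, the Hist3 cluster 2 and Hist4 a single gene. Members were chosen by symbol alone, but the family was proposed with region calls of these same libraries in view and so counts as selected on mark coverage. Its chromatin values are therefore a description, set beside those of all genes, with no test.

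Replication-dependent histone genes supply the core histones and linker histone H1 that package newly made DNA, and cells transcribe them mainly in S phase. Most of them lack introns, and their messages end in a conserved stem-loop in place of a poly(A) tail. The stem-loop is bound by Slbp, and Npat, a target of cyclin E and Cdk2, drives their transcription. Osteocytes are the long-lived cells embedded in bone, formed from osteoblasts that leave the cell cycle. The IDG-SW3 line comes from mouse long bone, and its immortalizing T antigen is kept active by a lowered temperature and interferon gamma, so the cells mature once both are withdrawn.

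The series holds 28 chromatin immunoprecipitation sequencing libraries, and the lists of 26 of them were used. All cells were expanded at the lower temperature with interferon gamma and then matured at a raised temperature in osteogenic medium with ascorbic acid and beta-glycerol phosphate and without interferon gamma. For 9 histone marks there was 1 library at day 3 and 1 at day 35 of maturation, in untreated cells. Nuclear receptors, VDR for vitamin D and RXR for retinoids, which bind as a pair, were mapped at day 35 after 3 hours of vehicle or of 100 nM 1,25-dihydroxyvitamin D3, with 2 replicates per arm. Because each mark had 1 library per day, no difference between days has a replicate check, and day, library and sequencing depth cannot be told apart. The lists give no read counts, so the depth is unknown. They held from 9360 to 100123 regions for the marks and from 291 to 10333 peaks for the factors. Among 10 osteoblast and osteocyte markers, H3K4me3 was called at Runx2, Sp7, Col1a1, Alpl and Dmp1 on both days and at none of Bglap, Phex, Mepe, Sost and Fgf23. At Dmp1 the call was not particular to H3K4me3, which covered 42.5% of the window at day 3, since H4K20me1 covered 42.5%, H3K36me3 43.5% and H3K9me3 43.6%. Among 6 markers of blood, endothelium, muscle and cartilage it was called at none at day 3 and at Ptprc alone at day 35. H3K27Ac covered 10.0% of the window of the blood gene Sfpi1 at day 3 and 50.1% at day 35.

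The members lay in 6 places of the mm9 genome. On chromosome 13 the Hist1 cluster fell into a proximal block of 23 genes (chr13:21807632-22135545), a distal block of 31 genes (chr13:23622919-24026720) and the lone gene Hist1h2al (chr13:51298057-51298434). The 9 Hist2 genes lay at chr3:96023839-96082924, the 2 Hist3 genes at chr11:58762413-58770176 and Hist4h4 at chr6:136752589-136752900. Their median length was 530.0 bp, against 15420.5 bp over all protein-coding genes. In 12 places an H2A and an H2B gene faced away from each other with start sites 168 to 306 bp apart, so these pairs share a promoter and most of their called regions.

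The 3′ stem-loop is the feature that sets the class apart from other messages, and it was searched in the first 300 bases after the coding sequence. The search asked for 16 bases on the gene's strand, with a 6-base stem that begins GG, a 4-base loop that begins TTT, and at most 1 unmatched stem pair. It was found with all pairs matched in 58 of 67 members (86.6%) and in 67 of 22380 protein-coding genes (0.299%). The 9 other genes included H2afx, the H2A.X variant gene, which was singled out after the match was seen. The forms are shown because their stems divide the members by class. Capitals mark the loop.

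Hist3h2ba: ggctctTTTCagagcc
Hist1h2bl: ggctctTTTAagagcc
Hist1h4k: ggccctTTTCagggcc
Hist1h4i: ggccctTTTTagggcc
Hist1h4j: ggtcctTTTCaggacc
Hist2h2ac: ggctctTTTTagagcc
Hist1h2an: ggctctTTTCagagct

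The form shown for Hist3h2ba (chr11:58762851-58762866, plus strand) was carried by 36 members, namely 5 H1, 15 H2A, 9 H2B and 7 H3 genes. The form of Hist1h2bl (chr13:21807587-21807602, minus strand) was carried by 9 members. The form of Hist1h4k (chr13:21842019-21842034, minus strand) was carried by 8 H4 genes and by no other class. The forms of Hist1h4i (chr13:22132835-22132850, minus strand) and Hist1h4j (chr13:21827306-21827321, plus strand) were carried by 2 H4 genes each. The forms of Hist2h2ac (chr3:96024341-96024356, minus strand) and Hist1h2an (chr13:21878647-21878662, minus strand) were each carried by that gene alone, and the latter has 1 unmatched stem pair. In Hist1h2bp, Hist1h2bq, Hist1h2br, Hist1h3g, Hist1h4a, Hist1h2al, Hist2h2be and Hist2h2bb no match was found, which says only that these letters are not in the searched window of the annotated gene.

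Promoter letters also divided the classes. In the 300 bases from 250 before to 50 after the start site, on both strands, CCAAT was found in 57 members (85.1%) and in 37.9% of all promoters. All 6 H1, 19 H2A and 18 H2B promoters held it, as did 10 of 11 H3 promoters, against 4 of 13 H4 promoters. GGTCC, the core of a site known from H4 promoters, was in all 13 H4 promoters, in 44.8% of the members and in 46.6% of all promoters. The octamer ATTTGCAT, bound by Pou2f1, was in 7 H2A and 8 H2B promoters and in none of the other classes, against 1.73% of all promoters. TATAAA was in 38 members (56.7%) and in 13.4% of all promoters. Since paired H2A and H2B genes share a promoter, a motif between them is counted for both.

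The 250 bases before the start site are shown for 3 members on which results turn. Hist2h3b had the largest rise of H3K4me3 coverage, Hist1h2af the largest drop, and Hist4h4 lay nearest to an RXR peak. Capitals mark CCAAT and GGTCC on either strand.

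Hist2h3b (chr3:96072327-96072576, plus strand): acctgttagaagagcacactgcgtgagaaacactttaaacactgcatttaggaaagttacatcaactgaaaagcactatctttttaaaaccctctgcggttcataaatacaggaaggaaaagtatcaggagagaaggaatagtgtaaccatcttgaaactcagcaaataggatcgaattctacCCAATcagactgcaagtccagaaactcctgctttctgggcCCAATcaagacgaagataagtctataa
Hist1h2af (chr13:23625525-23625774, plus strand): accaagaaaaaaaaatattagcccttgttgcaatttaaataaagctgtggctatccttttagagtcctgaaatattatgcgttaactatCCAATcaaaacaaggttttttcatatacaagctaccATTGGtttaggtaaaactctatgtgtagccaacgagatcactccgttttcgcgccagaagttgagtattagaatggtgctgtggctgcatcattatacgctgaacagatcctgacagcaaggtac
Hist4h4 (chr6:136752901-136753150, minus strand): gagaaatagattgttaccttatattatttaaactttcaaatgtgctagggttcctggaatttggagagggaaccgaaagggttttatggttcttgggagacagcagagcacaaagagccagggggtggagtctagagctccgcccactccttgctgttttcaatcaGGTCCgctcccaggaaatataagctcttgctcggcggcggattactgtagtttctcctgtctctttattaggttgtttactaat

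For each gene the window was the gene with 1 kb on each side, and the value is its coverage, the percent of the window inside called regions. A gene counts as lower or higher at day 35 where coverage differed by more than 10 percentage points. Neighbouring windows overlap, and the 67 windows joined into 37 stretches, so neighbours are not independent. The called regions that touched a member, each counted a single time, numbered 14 at day 3 and 8 at day 35 for H3K4me3, 24 and 30 for H3K9Ac, 23 and 22 for H3K27Ac, and 28 and 29 for H4K5Ac. They numbered 30 and 28 for H3K4me2, 25 and 26 for H3K4me1, 31 and 21 for H4K20me1, 3 and 4 for H3K36me3, and 1 and 1 for H3K9me3.

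**Figure D1:**
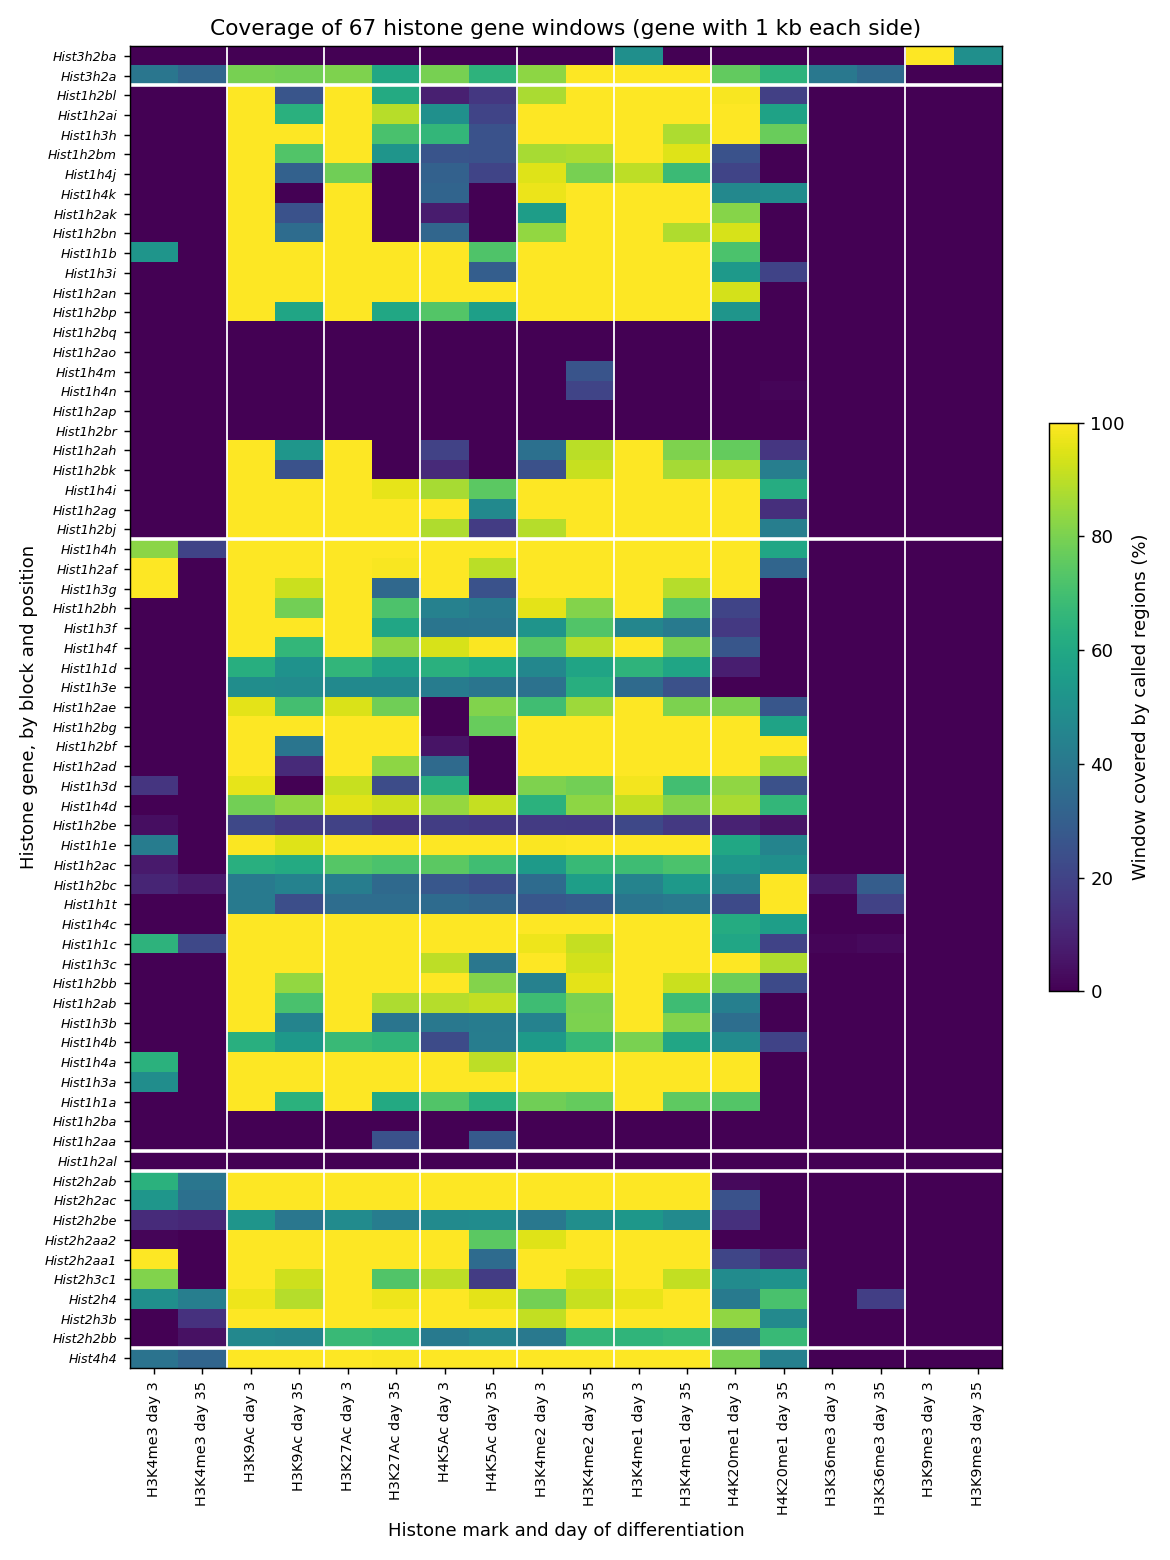
Coverage (percent of the gene window with 1 kb each side inside called regions) of the 67 histone genes in rows, by block and position, for 9 marks at day 3 and day 35 in columns, from dark (0%) to yellow (100%). Horizontal white lines separate the 6 places of the genome. The 3 acetyl marks, H3K4me2 and H3K4me1 fill most rows, H4K20me1 coverage is lower by more than 10 points at day 35 in 42 rows, H3K36me3 and H3K9me3 are nearly empty, and a run of 6 genes in the proximal block is almost without regions.

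At day 3 most of the histone genes carried acetylation and lower-order H3K4 methylation, and fewer of them carried H3K4me3. H3K9Ac, a mark of active promoters, was called at 57 of 67 members (65.2% of all genes had a region) and H3K27Ac, a mark of active promoters and enhancers, at 57 (66.6% of all genes). H4K5Ac was called at 55 (66.6% of all genes), H3K4me2 at 57 (65.3%) and H3K4me1, common at enhancers and promoter flanks, at 58 (72.5%). H3K4me3, the mark that surrounds active start sites, was called at 21 members (31.3%), against 48.9% of all genes. The full windows of 40 members were covered by both H3K9Ac and H3K27Ac at day 3, and 13 of these 40 had an H3K4me3 region.

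Acetylation without H3K4me3 was common among the members. Of the 57 members with H3K9Ac at day 3, 21 had H3K4me3 as well and 36 did not, whereas 74.8% of all genes with H3K9Ac at day 3 had it. The called H3K4me3 regions at members were of middling rank in their list, with a median score percentile of 42.6 at day 3, where the H3K9Ac regions at members stood at 89.7 and the H3K27Ac regions at 88.2. The lists rank regions by the authors' score, and ranks in lists of different lengths show no change. In windows of 1 kb on each side of the start site, which have the same size for every gene, 20 members and 10107 genes had H3K4me3 at day 3. Among the 16 members with under 10% repeated sequence (given further on), H3K4me3 was called at 8 at day 3. That share (50.0%) was near that of all genes (48.9%), so the lower share over all members was not seen in these 16. They held every H1 gene and no H3 gene, and Hist1h1b was their only gene of the proximal Hist1 block. Repeated sequence, class and block are therefore not separated in any count of these 16.

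H3K4me3 was called at 11 members at day 35 (43.5% of all genes). Coverage was lower in 13 members (4.66% of all genes) and higher in 1 (0.29% of all genes). The share of lower genes depends on gene length, since long genes dilute a region at the start site. In the equal windows around the start site 16 members (23.9%) were lower, against 28.9% of all genes. Only a gene with a region at day 3 can be lower, and fewer of the members had one. Those lower were 16 of the 20 members with a region there at day 3, and 6477 of 10107 genes. The shares over all genes therefore do not rank the members against the background. The call itself was gone at a number of members: 12 of the 21 members with a region at day 3 had none at day 35, against 13.0% of all genes with a region at day 3. Among the members with under 10% repeated sequence 2 of 8 with a region at day 3 had none at day 35. The middling score rank of H3K4me3 regions at members does not give their distance from the limit of calling. Its part in the lost calls was not tested.

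The members that held H3K4me3 at both days were Hist3h2a, Hist1h4h, Hist1h2bc, Hist1h1c, Hist2h2ab, Hist2h2ac, Hist2h2be, Hist2h4 and Hist4h4. Coverage of Hist2h4 was 49.6% at day 3 and 43.0% at day 35, and that of Hist4h4 38.1% and 32.6%. Hist1h4h went from 82.8% to 20.2% and Hist1h1c, a linker histone gene, from 64.5% to 21.7%. These 9 lay in 4 of the 6 places, with 3 of them in the distal Hist1 block and 4 in Hist2.

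The 12 members with H3K4me3 at day 3 alone included all 5 of the largest drops. The H2A gene Hist1h2af and the H3 gene Hist1h3g were fully covered at day 3 and had no region at day 35. Hist2h2aa1 was 99.6% covered, Hist2h3c1 81.0% and Hist1h4a 63.8% at day 3, each with none at day 35. The others were Hist1h1b (52.1% at day 3), Hist1h3a (49.2%), Hist1h1e (42.2%), Hist1h3d (15.4%), Hist1h2ac (7.16%), Hist1h2be (3.74%) and Hist2h2aa2 (1.20%). All 12 kept an H3K27Ac region at day 35. The window of Hist2h2aa1 lies almost wholly within that of Hist2h3c1, so their drops are largely of the same stretch. The windows of Hist1h2af and Hist1h3g overlap in part. Within the gene Hist2h2aa1 itself 100% of the sequence was repeated (measure given further on). Hist2h3b and Hist2h2bb, which are neighbours, had no H3K4me3 region at day 3 and 14.2% and 4.43% coverage at day 35.

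The blocks differed in H3K4me3. In the proximal Hist1 block 1 of 23 genes had a region at day 3, the H1 gene Hist1h1b, and none at day 35. In the distal block 11 of 31 had a region at day 3 and 3 at day 35, and in Hist2 the numbers were 7 and 6 of 9. In the 44 members without H3K4me3 on either day, H3K9Ac was called at 34 at day 3 and at 33 at day 35, and H3K4me2 at 34 and 36.

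**Figure D2:**
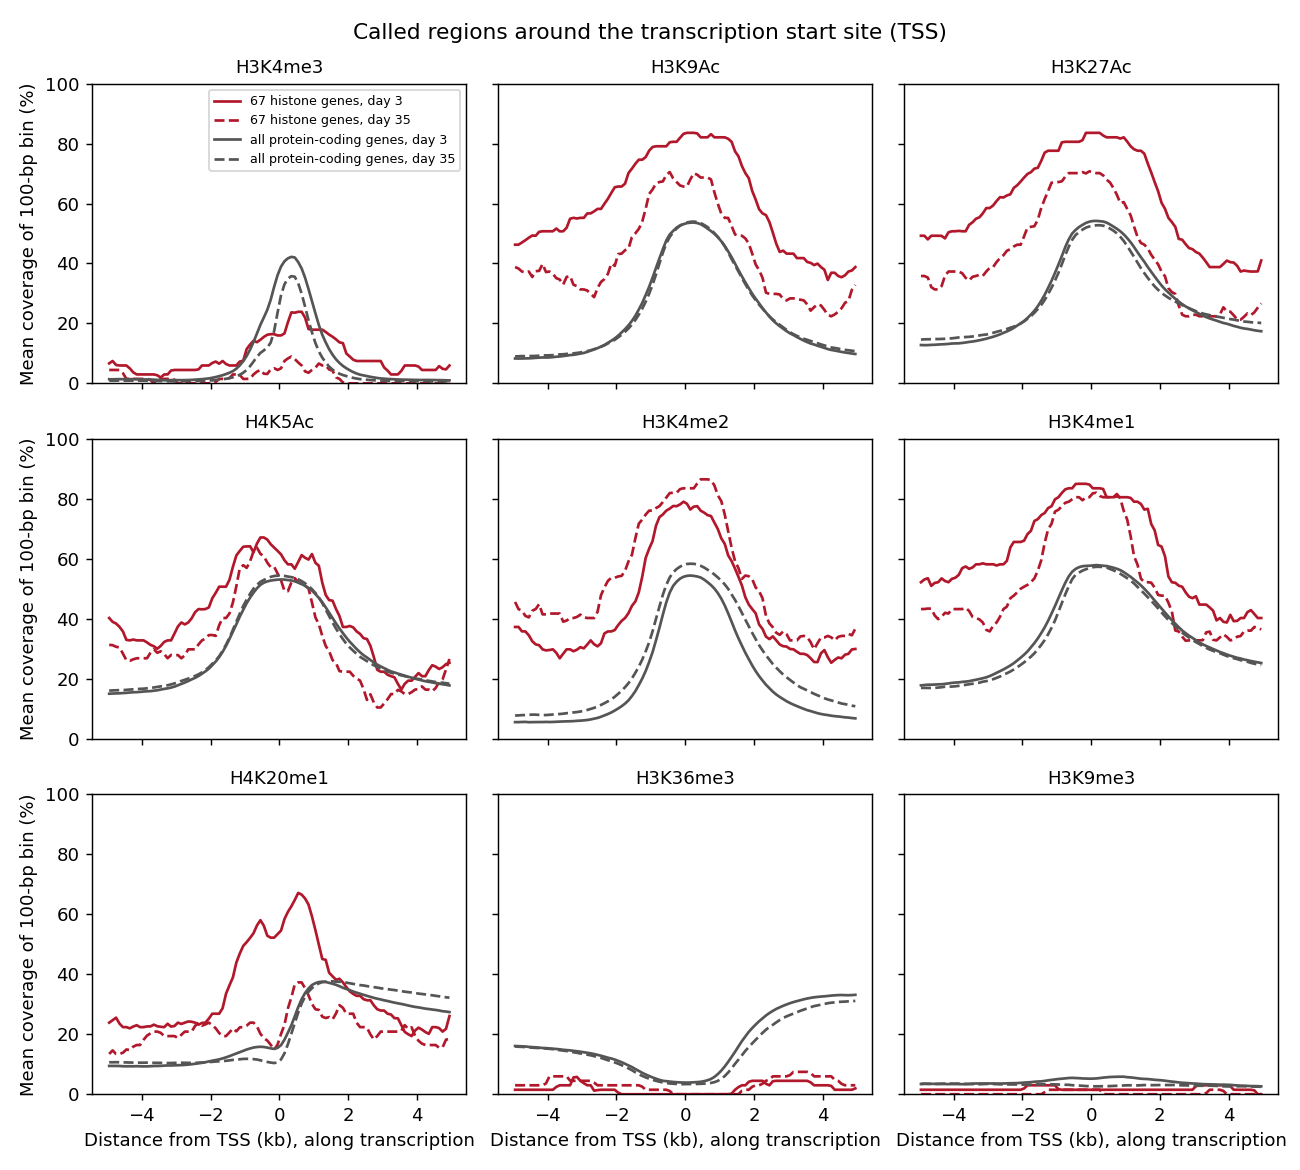
Mean coverage of 100-bp bins from 5 kb before to 5 kb after the annotated start site for each mark, for the 67 histone genes (red) and all 22380 protein-coding genes (grey) at day 3 (solid) and day 35 (dashed). H3K9Ac, H3K27Ac and H3K4me2 lie above the curve of all genes at the start site on both days, H4K5Ac lies above it at day 3 (61.5% against 53.2%) and not at day 35 (52.9% against 54.5%), H3K4me3 lies below it on both days, and H4K20me1 of the histone genes has a peak on both sides of the start site at day 3 that is lower at day 35.

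The profile around the start site shows the breadth of these domains. In the 100-bp bin that begins 2 kb upstream, mean H3K9Ac coverage of the members was 65.7% at day 3 and 43.1% at day 35, against 15.9% and 15.4% over all genes. In the bin at the start site it was 83.6% and 65.7%, against 53.5% and 53.7%. H3K4me3 at the start site covered 16% at day 3 and 5.03% at day 35, against 39.0% and 29.4% over all genes. Other members lie within these distances, so a flank of a histone gene is often a second histone gene.

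At day 35 acetylation was narrower at a share of the members. H3K9Ac was still called at 55 (65.9% of all genes), H3K27Ac at 52 (65.7%) and H4K5Ac at 50 (68.2%). Median coverage over the 67 members was 100% at day 3 and 66.1% at day 35 for H3K9Ac, 100% and 71.4% for H3K27Ac, and 62.9% and 39.7% for H4K5Ac. H3K9Ac was lower at 23 members (4.38% of all genes), H3K27Ac at 23 (6.73%) and H4K5Ac at 24 (7.11%). In the equal windows around the start site the members lower were 19 for H3K9Ac (28.4%, against 8.1% of all genes), 17 for H3K27Ac (25.4%, against 10.8%) and 17 for H4K5Ac (25.4%, against 5.44%). These shares were above the background in all 3 marks and both kinds of window. Only a gene with a region at day 3 can be lower, and more of the members had one. Those lower for H3K9Ac were 19 of the 57 members with a region around the start site at day 3, and 1813 of 12736 genes. For H3K27Ac they were 17 of 57 members and 2418 of 12872 genes. For H4K5Ac they were 17 of 55 members and 1217 of 12733 genes. Among the 16 members with under 10% repeated sequence, 4 were lower for H3K9Ac, 2 for H3K27Ac and 2 for H4K5Ac.

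All 3 acetyl marks were lower together at 16 members (4.43% of all genes). The rule asked for H3K27Ac lower by more than 10 points and H3K9Ac and H4K5Ac by any amount. By the same rule they were higher together at 0 members and at 2322 of 22380 genes. A window fully covered at day 3 could not be higher. Each of the 3 was lower by more than 10 points at 9 of the 16 (1.13% of all genes). At the others a mark barely differed in places, as H3K9Ac at Hist3h2a (79.7% and 78.5%) and H4K5Ac at Hist1h2bm (25.9% and 25.2%). The 16 were the H2A genes Hist3h2a, Hist1h2ai, Hist1h2ak, Hist1h2ah and Hist1h2ad, the H2B genes Hist1h2bm, Hist1h2bn, Hist1h2bp, Hist1h2bk and Hist1h2bh, the H3 genes Hist1h3g, Hist1h3d and Hist2h3c1, the H4 genes Hist1h4j and Hist1h4k, and the H1 gene Hist1h1a. At Hist1h3d coverage went from 96.4% to none for H3K9Ac, from 91.7% to 23.2% for H3K27Ac and from 62.9% to none for H4K5Ac. At Hist1h3g the values were 100% and 92.0% for H3K9Ac, 100% and 33.9% for H3K27Ac, and 100% and 25.2% for H4K5Ac. At Hist1h1a they were 100% and 64.0%, 99.7% and 60.6%, and 73.0% and 63.2%.

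The H3K27Ac regions lost altogether lay in a single block. Of the 57 members with H3K27Ac at day 3, 6 had none at day 35 (4.66% of all genes with a region at day 3), and all 6 were in the proximal Hist1 block: Hist1h4j, Hist1h4k, Hist1h2ak, Hist1h2bn, Hist1h2ah and Hist1h2bk. Of these, 5 were fully covered at day 3 and Hist1h4j was 78.5% covered. In that block median H3K27Ac coverage was 100% at day 3 and 0% at day 35, and 11 of 23 genes were lower. This median counts 6 genes of almost wholly repeated sequence (given further on) that had no H3K27Ac region on either day. Over the 17 others it was 100% and 61.1%. In the distal block 10 of 31 were lower, with medians of 100% and 78.4%. In Hist2 1 of 9 was lower, Hist2h3c1, which went from full coverage to 72.9%.

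The 6 members without H3K27Ac at day 35 still had H3K4me2 there. H3K4me2 coverage of Hist1h2ak was 55.7% at day 3 and 100% at day 35, that of Hist1h2bn 83.8% and 100%, that of Hist1h2ah 37.1% and 89.6%, and that of Hist1h2bk 24.7% and 91.7%. Hist1h4k went from 97.0% to 100% and Hist1h4j from 95.3% to 79.7%. H3K9Ac at these genes remained at partial coverage, from 25.0% at Hist1h2bk to 52.5% at Hist1h2ah, except at Hist1h4k, where it was not called at day 35. Within the same block Hist1h1b, Hist1h3i, Hist1h2an, Hist1h2ag and Hist1h2bj were fully covered by H3K27Ac at both days.

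**Figure D3:**
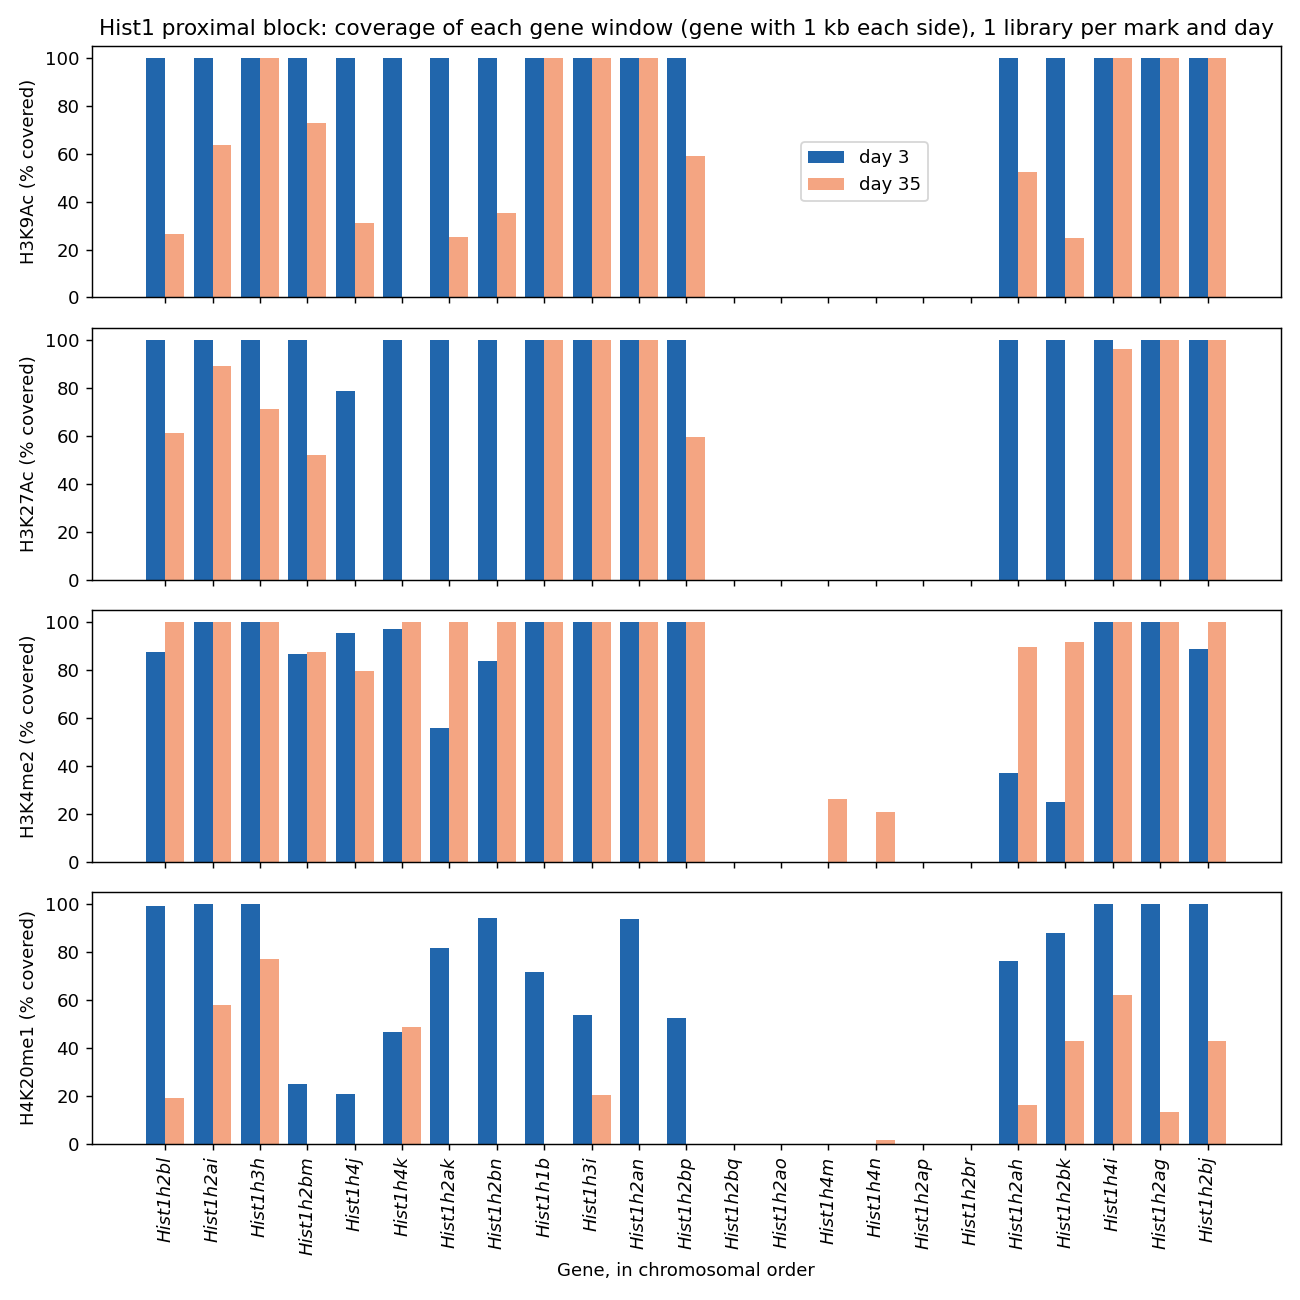
Coverage (percent of the gene window) of the 23 genes of the proximal Hist1 block in their order on chromosome 13, for H3K9Ac, H3K27Ac, H3K4me2 and H4K20me1 at day 3 (blue) and day 35 (orange), 1 library per bar. H3K27Ac has no day 35 bar at 6 genes that had one at day 3, while H3K4me2 has one at all 6.

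A few members had more acetylation at day 35, though windows fully covered at day 3 could not rise. H3K27Ac was higher at 1 member (16.8% of all genes), the testis-type H2A gene Hist1h2aa, which had no region at day 3 and 25.0% coverage at day 35. H4K5Ac was higher at 4 (12.9% of all genes). The divergent pair Hist1h2ae and Hist1h2bg had no H4K5Ac region at day 3 and 81.2% and 76.6% coverage at day 35, Hist1h2aa went from none to 28.3%, and Hist1h4b from 22.9% to 42.4%. The same pair was 94.2% and 100% covered by H3K27Ac at day 3 already. The largest H4K5Ac drops were at Hist1h3g, Hist2h3c1 (89.9% to 17.8%), Hist1h2bj (88.0% to 17.7%), Hist1h3i (100% to 29.7%) and Hist2h2aa1 (100% to 34.8%).

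H3K4me2 went the other way. It was called at 59 members at day 35 (70.3% of all genes), was higher at 23 (10.8% of all genes) and lower at 2 (0.809%), Hist1h4j and Hist1h2bh (96.0% to 81.3%). Around the start site 15 members (22.4%) were higher, against 16.2% of all genes, which is closer to the background than the gene windows. The H3K4me2 list grew from 45596 regions at day 3 to 66645 at day 35, and the part of that growth in these counts was not tested beyond a comparison at equal region numbers, where 21 members were higher. Of the 23 members lower for H3K27Ac, 21 were not lower for H3K4me2 and 11 were higher for it. The largest rises after Hist1h2bk and Hist1h2ah were at Hist1h2bb (43.8% to 96.0%), Hist1h2ak and Hist1h3b (44.2% to 80.1%).

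H3K4me1 was called at 57 members at day 35 (73.5% of all genes). It was lower at 15 (9.93% of all genes) and higher at none (1967 of 22380 genes). Median coverage of the members was already 100% at day 3, which leaves little room for a rise. The largest drops were at Hist3h2ba (49.6% to none), Hist1h2ab (100% to 69.1%), Hist1h3d (98.1% to 69.6%), Hist1h2bh (100% to 74.1%) and Hist1h1a (100% to 75.1%). Around the start site the number lower was 6 of 67, against 2346 of 22380 genes.

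H4K20me1 gave the most frequent difference between the days. This mark is laid down by Kmt5a in a cycle that peaks around mitosis. It was called at 55 members at day 3 (53.3% of all genes) and at 36 at day 35 (49.5%). Median coverage was 53.2% and 11.0%, against 1.88% and 0% over all genes. Coverage was lower at 42 members (6.86% of all genes) and higher at 4 (18.6%). In the equal windows around the start site 41 members (61.2%) were lower, against 11.0% of all genes. Those lower were 41 of the 52 members with a region there at day 3, and 2472 of 9183 genes. Of the 55 members with a region at day 3, 20 had none at day 35, against 11.8% of all genes with one.

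The H4K20me1 difference spanned both Hist1 blocks and every class. It was lower in 16 of 23 genes of the proximal block, 21 of 31 of the distal block and 3 of 9 of Hist2. By class it was lower in 4 of 6 H1, 11 of 19 H2A, 10 of 18 H2B, 9 of 11 H3 and 8 of 13 H4 genes. Over the joined windows of Hist2 as a whole, coverage was higher at day 35 (31.9% at day 3 and 43.4% at day 35). Among the 16 members with little repeated sequence 9 were lower. Hist1h3g, Hist1h4a and Hist1h3a were fully covered at day 3 and had no region at day 35. Hist1h2bn went from 94.0% to none and Hist1h2an from 93.6% to none. H4K20me1 and H3K27Ac were both lower at 21 members, and H4K20me1 was lower at 21 further members where H3K27Ac was not. The deposited list of H4K20me1 itself held 35157 regions at day 3 and 22967 at day 35, which covered more bases at day 35 (215898716 and 245341416), and the part of this in the counts was not tested beyond equal region numbers, where 35 members were lower.

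At 4 members H4K20me1 coverage was higher at day 35. The linker histone gene Hist1h1t, known for its expression in testis, went from 22.5% to 100%, and its neighbour Hist1h2bc from 44.8% to 100%. In Hist2 the neighbours Hist2h2bb and Hist2h4 went from 36.9% to 67.6% and from 41.1% to 71.3%. Of these 4, 3 also had the only higher values of H3K36me3.

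**Figure D4:**
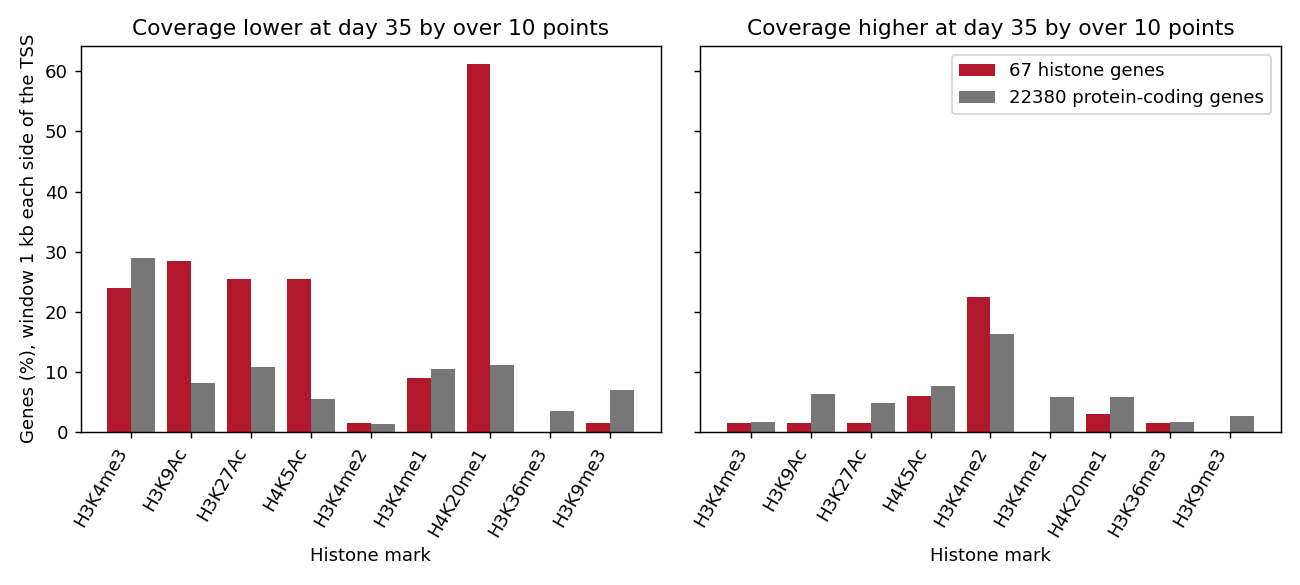
Percent of genes whose coverage within 1 kb on each side of the start site was lower (left) or higher (right) at day 35 by more than 10 percentage points, for 67 histone genes (red) and 22380 protein-coding genes (grey), by mark. The red bar for H4K20me1 stands at 61.2% against 11.0%, those of the 3 acetyl marks at 25.4% to 28.4%, and that of H3K4me3 is below the grey bar. Genes without a region at day 3, which cannot be lower, are counted in every share.

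H3K36me3, which follows transcribing polymerase through gene bodies, was nearly absent. It was called at 3 members at day 3 (53.3% of all genes) and at 5 at day 35 (55.4%). Around the start site 2258 of 22380 genes had it at day 3, against 0 of 67 members. It was higher at 3 members (10.5% of all genes): Hist1h2bc went from 6.33% to 29.6%, Hist1h1t from none to 19.7% and Hist2h4 from none to 18.7%. Hfe, the iron regulator gene that follows Hist1h1t after the H4 gene Hist1h4c, had no H3K36me3 at day 3 and 46.7% coverage at day 35. Hist3h2a was covered to 40.2% and 34.3%, and Hist1h1c to 1.43% and 2.47%.

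H3K9me3, a mark of silent chromatin, was called at 2 members at day 3 (28.9% of all genes) and at 1 at day 35 (19.9%). In the equal windows around the start site it was called at 2 of 67 members and 2091 of 22380 genes at day 3. At day 35 the numbers were 1 and 1287. Hist3h2ba was fully covered at day 3 and 50.0% covered at day 35, the single lower member (4.58% of all genes). The region at day 3 reached 0.326% into the window of its neighbour Hist3h2a. Apart from it Hist3h2ba had a region of H3K4me1 at day 3 and of no other mark on either day. Hist3h2a, 1 gene away, had regions of all 9 marks at day 3.

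Near-identical copies limit what short reads can show at these genes. The share of 32-base words of each window that occur again in the mm9 genome was taken as a measure, since the sources used here do not say how repeated reads were handled. It was under 10% in 16 members. The flanks count in this share, and within the gene itself it can be higher, as at Hist1h4c (7.40% of the window and 47.5% of the gene). The share of the window was over 90% in 6 adjoining genes of the proximal block, Hist1h2bq, Hist1h2ao, Hist1h4m, Hist1h4n, Hist1h2ap and Hist1h2br. These 6 had no region of any mark at day 3. At day 35 they had H3K4me2 at Hist1h4m (26.1% coverage) and Hist1h4n (20.6%), and H4K20me1 at Hist1h4n (1.40%). Hist2h2aa1 and Hist2h2aa2 had shares of 66.8% and 66.7% and were fully covered by H3K9Ac and H3K27Ac on both days.

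Outside the repeated run, 3 further members had no region at day 3. The divergent pair Hist1h2ba and Hist1h2aa, whose H2B and H2A variants are known from testis, lies at the far end of the distal block. Hist1h2ba had no region of any mark on either day. Its repeated share was 9.71% over the window, where most words were thus single in the genome, and 44.4% within the gene. Hist1h2al, far from both blocks, had no region either, with shares of 35.2% over the window and 83.3% within the gene. In all, 6 members had no region of any mark on both days, the other 4 being Hist1h2bq, Hist1h2ao, Hist1h2ap and Hist1h2br.

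**Figure D5:**
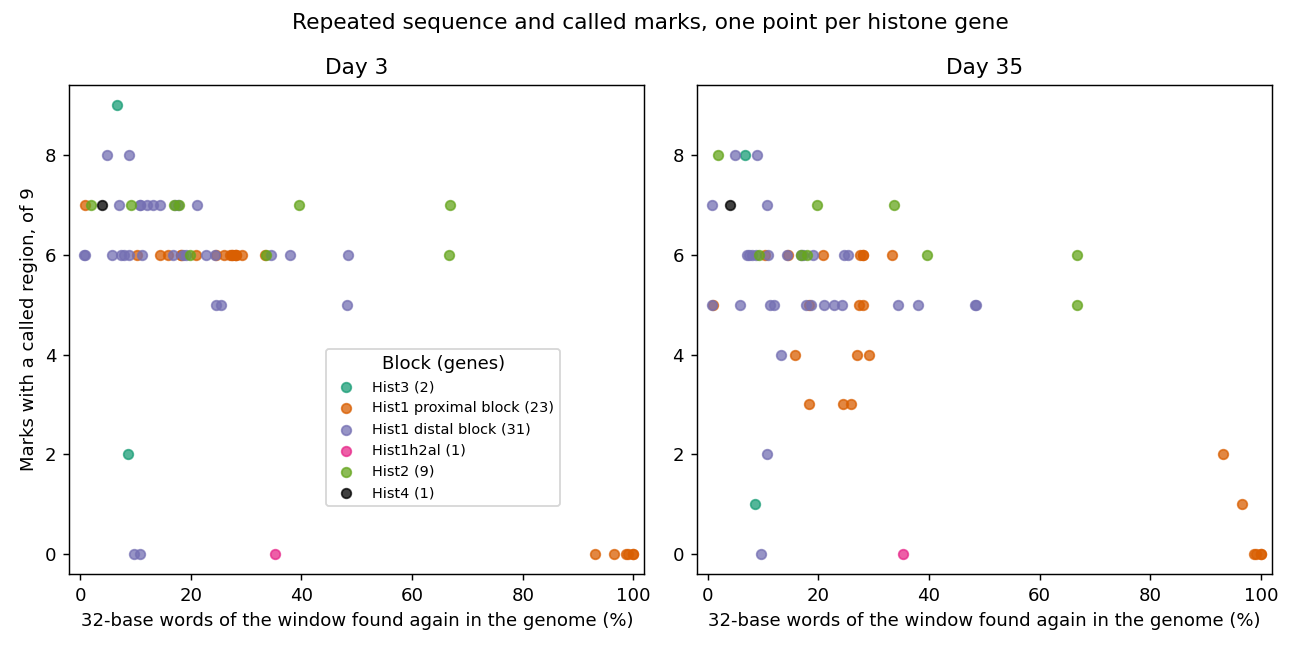
Number of the 9 marks with a called region (vertical axis) against the percent of 32-base words of the gene window that are found again in the genome (horizontal axis), at day 3 (left) and day 35 (right), 1 point per histone gene coloured by block. The 6 genes above 90% sit at 0 marks at day 3, while most others sit at 5 to 8 marks on that day.

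Most members carried a similar set of marks at day 3: 34 had regions of 6 marks and 17 of 7. At day 35 23 had regions of 6 marks and 18 of 5. By class, median H3K27Ac coverage was 100% at day 3 in H2A, H2B, H3 and H4 genes and 99.9% in H1 genes. At day 35 it was 80.3% in H1, 83.0% in H2A, 47.3% in H2B, 71.4% in H3 and 92.4% in H4 genes. H3K27Ac was lower at 6 of 11 H3 genes and at 3 of 13 H4 genes, 7 of 19 H2A, 6 of 18 H2B and 1 of 6 H1 genes. Classes are spread unevenly over the blocks, so class and block are not separated by these counts. Of the 12 divergent pairs, Hist1h2ak with Hist1h2bn and Hist1h2ah with Hist1h2bk had no H3K27Ac at day 35 in either gene. Hist1h2ag with Hist1h2bj was fully covered in both.

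Other protein-coding genes between the members were compared as local context. They were 10: Zfp184, Pom121l2, Prss16, Gm17658, Hfe, Trim38, Slc17a1, Slc17a2, Slc17a3 and Slc17a4. H3K27Ac was called at 5 of them at day 3 and 4 at day 35 (66.6% and 65.7% of all genes). It was lower at 1 (6.73% of all genes), Prss16, which went from 16.2% to none. H4K20me1 was called at 1 (53.3% of all genes at day 3 and 49.5% at day 35), Gm17658, at 56.0% and 37.9%. The window of Gm17658 takes in the whole member Hist1h4d, whose own window was covered to 87.3% and 66.2%. The solute carrier genes Slc17a1, Slc17a2, Slc17a3 and Slc17a4 and the ubiquitin ligase gene Trim38, all within the distal block, had no H3K27Ac on either day.

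VDR and RXR peaks were counted near the histone genes. Within 10 kb of any member the 2 vehicle libraries of VDR had 0 and 0 peaks and the 2 hormone libraries 1 and 1, a difference of 1 peak that an exact two-sided permutation test put at p = 0.33, the smallest that 2 against 2 allows. RXR had 0 and 0 peaks with vehicle and 0 and 2 with hormone (exact permutation p = 1). The VDR counts did not overlap between arms and the RXR counts did, since hormone replicate 1 was also at 0. The whole lists did not overlap between arms for either factor. VDR had 291 and 342 peaks in all with vehicle and 1618 and 1333 with hormone. RXR had 6875 and 4093 with vehicle and 10333 and 7635 with hormone. A peak within 10 kb in both replicates was present for 3 of 67 members for VDR with hormone (5.28% of all genes) and for 0 with vehicle (2.19%). For RXR it was present for 0 members with hormone (16.3% of all genes) and for 0 with vehicle (9.44%). The VDR share with hormone was near that of all genes. Windows with 10 kb on each side are longer at longer genes. Median gene length was 530.0 bp for members and 15420.5 bp over all genes, so these shares are not at equal window size.

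The VDR peaks of both hormone replicates marked a single place upstream of Hist2h4. They lay at chr3:96067651-96067939 with an authors' score of 7.2 and at chr3:96067665-96067981 with 8.0, 417 and 431 bp from the gene. Hist2h3b and Hist2h2bb were the other members within 10 kb. The stretch shared by both peaks is printed from the plus strand because it is the sole VDR site of the clusters. Capitals mark AGGTCA, the half-site that nuclear receptors bind.

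VDR site near Hist2h4 (chr3:96067665-96067939, plus strand): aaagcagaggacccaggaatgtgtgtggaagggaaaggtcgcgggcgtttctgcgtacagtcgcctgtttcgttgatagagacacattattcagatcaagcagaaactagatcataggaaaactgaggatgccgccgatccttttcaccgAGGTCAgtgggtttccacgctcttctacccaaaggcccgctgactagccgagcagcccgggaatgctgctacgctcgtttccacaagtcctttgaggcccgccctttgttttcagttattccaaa

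The stretch is 275 bases long. AGGTCA on either strand was in 32.4% of the central 275 bases of the 1618 VDR peaks of hormone replicate 1, in 32.2% of the 1333 of replicate 2 and in 13.5% of promoter windows of that length. The element VDR and RXR bind together is a direct repeat of the half-site spaced by 3 bases. It was searched with a looser half-site, RGKTSA, in place of AGGTCA. In it R is A or G, K is G or T, and S is C or G. This looser repeat was not found in the stretch when 1 mismatch was allowed. It was in 41.2% and 41.7% of the VDR peaks of the replicates and in 4.92% of promoter windows. Because the letters differ, these shares cannot be set against those of AGGTCA. The letters are a description and say nothing of whether the receptor bound there.

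RXR peaks appeared in hormone replicate 2 alone. One lay at chr3:96067318-96067632 with a score of 6.4, 84 bp from Hist2h4 and beside the VDR peaks without overlapping them. The other lay at chr6:136752530-136752844 with a score of 7.0 and overlapped Hist4h4. Both genes had H3K4me3 at both days, and both were fully or nearly fully covered by H3K27Ac, Hist2h4 at 100% and 97.5% and Hist4h4 at 100% and 99.6%.

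Genes that act on the histone messages and proteins were measured in the same way. The regulators listed were transcription factors, the U7 and cleavage machinery, Slbp and cyclin E with Cdk2, and 17 of 18 were found by symbol. H3K4me3 and H3K36me3 were called at all 17 at day 3 (48.9% and 53.3% of all genes). H3K27Ac was lower at 7 (6.73% of all genes) and higher at 3 (16.8%). H4K20me1 was lower at 8 (6.86%) and higher at 3 (18.6%). Npat, the coactivator of histone transcription, had H3K27Ac coverage of 25.6% at day 3 and 19.4% at day 35, and H4K20me1 of 62.9% and 31.2%. Slbp, the stem-loop binding protein gene, had H3K27Ac of 64.0% and 61.6% and H4K20me1 of 84.2% and 59.4%. Ccne2, a cyclin E gene, went from full H3K27Ac coverage to 47.9%, and E2f1 from 83.1% to 53.1%. Lsm10, a subunit of the U7 particle that cuts histone messages, went up from 53.9% to 94.7%, and Srrt from 57.8% to 84.6%.

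Histone chaperones carry new histones to DNA. Of 6 listed, H3K27Ac was lower at 4 (6.73% of all genes) and H4K20me1 at 5 (6.86%). Nasp, which holds the soluble H3 and H4 pool, went from 32.8% to 10.9% for H3K27Ac and from 95.5% to 53.9% for H4K20me1. Hat1, the acetyltransferase of new H4, went from 38.1% to 9.07% and from 68.4% to 15.6%. Asf1b went from 23.2% to 11.2% for H3K27Ac and from 70.4% to none for H4K20me1.

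Genes listed as replication-independent make histone variants whose use is not limited to S phase, and 10 of 11 listed were found. H2afx is on this list although it carries the matched stem-loop described above. H3K4me3 was called at all 10 at day 3 and 9 at day 35 (48.9% and 43.5% of all genes). H3K36me3 was called at all 10 and 9 (53.3% and 55.4%). H3K27Ac was lower at 3 (6.73% of all genes). Of these, H3f3b, an H3.3 gene, went from 97.6% to 60.5%. The linker gene H1fx went from 90.2% to 20.5% and the centromere histone gene Cenpa from 100% to 21.7%. H2afz, H2afj and H2afx had 100% coverage at day 3 and 100%, 100% and 95.1% at day 35. This list and the members were not tested against each other.

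Genes of S phase and mitosis had lower H4K20me1 coverage at day 35 with few exceptions. Of 16 listed, 15 were lower for H4K20me1 (6.86% of all genes), with median coverage of 72.7% at day 3 and 2.63% at day 35. H3K27Ac was lower at 9 (6.73% of all genes), with medians of 48.7% and 18.6%. These genes were listed with earlier results of these data known. Mki67 went from 84.8% to 1.75% for H4K20me1, Mcm4 from 100% to 11.6% and Top2a from 45.4% to none. At Pcna and Mcm7 H3K27Ac covered the full window at both days. All 16 had H3K4me3 at day 3 (48.9% of all genes), and 14 had it at day 35 (43.5%).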

How the data were processed

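The authors deposited 1 list of called regions per library in mm9 coordinates, with a score per region. Bowtie and HOMER are named in the submitters' processing notes, without versions; calling parameters, the use of input and the handling of repeated reads are not stated in those sources. Scores were used only to rank regions within a list. Members and gene lists were chosen with earlier results of these data known. The rule named members with H3K4me3 at neither day (given here mostly as counts) or at 1 day only, those whose H3K27Ac differed by over 10 points with H3K9Ac and H4K5Ac the same way, the 5 largest rises and drops per mark, those with H3K9me3 or a factor peak within 10 kb, and those with most repeated words. Members with H3K4me3 at both days, and others outside the rule, were named after their values were seen. Coverage was computed with Python 3.11.15, numpy 2.4.6 and pandas 2.3.3 from merged regions in each gene window (NCBIM37 genome, GENCODE M1) after the code was tested on simulated regions. Repeats were exact 32-base words on either strand. Alternatives changed the window, the regions kept, the overlap (500 bp), the threshold (20 points) and the members. Peak counts were compared by exact permutation. Replicate numbers were not shown to pair samples. The 2 input libraries were not analysed here. The promoter sequence of the member nearest to a VDR peak is not reported here.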

Additional observations from a re-analysis of the deposited data

How the results depend on the processing

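The main shares of the 67 members and the peak differences gave 73 alternative values that stayed within 1.5 times of the reported one (or within the replicate spread for peaks) and 23 that did not; the other shares gave 191 and 49, and 0 reversed. Among the latter, H3K4me1 was lower (22.4%) in 2.99% in gene bodies, 8.96% around the start site, 43.3% with 5 kb and 10.4% past 20 points. H4K20me1 was lower in 44.8% to 68.9% of members under every setting run. H3K4me3 at day 3 (31.3%) became 47.8% with 5 kb each side, 7.46% with the higher-scoring 50% of regions and 50.0% in members with under 10% repeated words. At day 35 (16.4%) it became 1.49% with the higher-scoring regions and 37.5% with little repeated sequence, and the share lower (19.4%) became 5.97% with the higher-scoring regions. With 5 kb each side H3K9Ac was lower in 53.7% and H3K27Ac in 52.2% (34.3% each as reported). In members with under 10% repeated words H3K27Ac was lower in 12.5%. H4K5Ac (35.8%) was lower in 19.4% in gene bodies, 12.5% with little repeated sequence and 22.4% past 20 points. H3K4me2 (34.3%) was higher in 20.9% in gene bodies, 22.4% around the start site and 16.4% past 20 points. H3K36me3 at day 35 (7.46%) became 2.99% in gene bodies and with the higher-scoring regions, 16.4% with 5 kb, 1.49% around the start site and 31.3% with little repeated sequence. Leaving out the 6 members over 90% repeated, an alternative chosen after seeing the data, kept every count within 1.5 times. The cause of these shifts was not tested. The hormone difference in peaks was 0 for VDR and for RXR in the higher-scoring 50% of each list. Without each replicate in turn it was 1 to 1 for VDR and 0 to 2 for RXR. With a replicate block the exact permutation p was 0.5 for VDR, the smallest possible, and 1 for RXR, for differences of 1 and 1. Read depth is unknown, so absence of a region is absence of a call.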
